A study of Mus musculus with 19 samples.

Results

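The 3 Nr4a orphan nuclear receptors (Nr4a1, Nr4a2 and Nr4a3) and the 3 retinoid X receptors (Rxra, Rxrb and Rxrg) were followed across 19 RNA sequencing libraries of mouse dorsal hippocampus. The 6 genes were chosen by name, as the rows whose Ensembl identifier, with its version dropped, belonged to these symbols, and they make up 6 of the 51789 genes counted. All 6 had counts in every library and all 6 passed the filter on low counts in every comparison. The mice were male C57BL/6J aged 2 to 4 months. In experiment 1 all mice carried tTA, the tetracycline transactivator, and all had undergone SOR, which the labels leave as an abbreviation. Of these libraries, 5 came from mice that also carried DN (tTA+/DN+) and 6 from controls without it (tTA+/DN-). In experiment 2 every mouse lacked DN, and 4 libraries from mice exposed to SOR were set against 4 from mice kept in the homecage. Replicate 1 of the SOR group and replicates 1 and 2 of the homecage group were tTA-, and the other 5 libraries of experiment 2 were tTA+. The study's design text calls these mice Nr4ADN, and the labels do not describe the transgene or its promoter. In the published mouse line of that name, DN encodes a dominant-negative Nr4a protein that needs tTA to be transcribed, and tTA is driven by the CaMKIIα promoter, which is active in forebrain excitatory neurons, so other cells of the tissue are not targeted. The labels give neither the sequence of the transgene nor a statement that each library is a separate animal, so whether transgene reads enter the count of an Nr4a gene is not known here, and p-values measure the spread between these libraries.

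Nr4a proteins are transcription factors that bind DNA without a known natural ligand in their closed ligand pocket, and their activity is set mainly by how much of them is made. Their genes are immediate-early genes: neuronal activity and cyclic AMP signalling switch them on through CREB, a factor that binds the cyclic AMP response element (CRE), and they have been tied to the hours of transcription after learning. Retinoid X receptors bind retinoids and fatty acids and serve as the shared partner of many nuclear receptors, including the retinoic acid, thyroid hormone and liver X receptors. Nr4a1 and Nr4a2, but not Nr4a3, are known to form heterodimers with them. Nr4a2 is best known for its need in midbrain dopamine neurons.

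The promoter sequences are shown because the 2 families differ in them by the CRE half-site, the letters TGACG or CGTCA on the strand read. RefSeq (assembly GRCm38.p6) listed 9 promoter windows of 300 bases for the 6 genes. The 250 bases before the start are printed 5′ to 3′ on the strand of the gene for the 3 Nr4a genes and for the first Rxrb start, with each half-site in capitals. They lie at chr15:101266596-101266845 (plus strand, Nr4a1), chr2:57124004-57124253 (minus strand, Nr4a2), chr4:48045055-48045304 (plus strand, Nr4a3) and chr17:34031562-34031811 (plus strand, Rxrb).
Nr4a1: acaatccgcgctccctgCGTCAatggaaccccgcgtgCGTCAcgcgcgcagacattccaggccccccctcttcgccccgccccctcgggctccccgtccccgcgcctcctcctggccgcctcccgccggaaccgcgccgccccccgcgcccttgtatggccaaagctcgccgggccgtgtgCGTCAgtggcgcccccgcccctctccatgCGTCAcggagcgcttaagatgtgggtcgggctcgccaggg
Nr4a2: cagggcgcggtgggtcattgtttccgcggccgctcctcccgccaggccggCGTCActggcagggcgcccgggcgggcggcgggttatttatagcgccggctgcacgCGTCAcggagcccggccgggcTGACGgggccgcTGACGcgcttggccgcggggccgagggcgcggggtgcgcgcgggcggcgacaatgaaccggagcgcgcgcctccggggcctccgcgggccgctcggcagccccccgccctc
Nr4a3: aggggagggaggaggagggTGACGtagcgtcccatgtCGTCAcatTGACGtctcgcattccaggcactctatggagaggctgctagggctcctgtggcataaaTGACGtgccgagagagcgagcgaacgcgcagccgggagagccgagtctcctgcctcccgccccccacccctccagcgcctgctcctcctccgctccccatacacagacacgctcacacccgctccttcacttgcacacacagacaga
Rxrb: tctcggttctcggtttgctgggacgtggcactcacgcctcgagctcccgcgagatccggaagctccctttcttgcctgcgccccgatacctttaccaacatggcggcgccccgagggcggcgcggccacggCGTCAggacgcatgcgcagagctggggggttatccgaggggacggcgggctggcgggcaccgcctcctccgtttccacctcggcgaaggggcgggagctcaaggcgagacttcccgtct

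Each Nr4a window held 4 half-sites, and all 12 lay before the start. Counted as bases before the start, those of Nr4a1 began at 233, 213, 69 and 40, those of Nr4a2 at 200, 144, 123 and 111, and those of Nr4a3 at 231, 213, 205 and 147. The first Rxrb window held 1, at 119 bases before the start, and the other 5 Rxr windows held 0. Of 32851 mouse promoter windows of the same length, 20.8% held at least 1 half-site and 0.231% held at least 4. The full CRE, TGACGTCA, was in none of the 9 windows and in 1.79% of all windows. The NBRE, the site AAAGGTCA (TGACCTTT on the other strand) that an Nr4a protein binds as a monomer, was in 0 of the 3 Nr4a windows, in 1 of 2 Rxra windows and in 1 of 2 Rxrg windows, against 1.51% of all windows. It contains the shorter hormone half-site AGGTCA, so matches of the 2 motifs overlap. The Nr4a1, Nr4a2 and Nr4a3 windows had a GC content of 72.3%, 81.7% and 64.7%, which affects how often a motif with a CG pair occurs by base composition. Of 11 other immediate-early genes with a RefSeq window, 10 held at least 1 half-site and 1 held at least 3. A match is a run of letters and not a bound site.

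By level, Rxrb and Nr4a2 led the 6 genes and Rxrg was the lowest. Levels are compared between genes as RPKM, CPM (scaled over all 19 libraries) per kilobase of annotated exon, where CPM relates a gene's count to the library total. Over the 19 libraries Rxrb, the RXR form found in most tissues, averaged 12.5 ± 1.53 RPKM (SD, n = 19). Nr4a2 averaged 11.7 ± 2.23, Nr4a3 8.61 ± 1.55 and Nr4a1 8.14 ± 2.57 RPKM. Rxra, the form that dominates in liver, averaged 4.72 ± 0.429 RPKM, and Rxrg, the form typical of striatum and muscle, 0.581 ± 0.156 RPKM. Rxrg rested on 27 to 121 counts per library. Among 49 nuclear receptor genes ordered by mean RPKM, Rxrb was at place 5, Nr4a2 at 6, Nr4a3 at 8, Nr4a1 at 10, Rxra at 16 and Rxrg at 33. By the means of the 4 groups Nr4a1 was at places 7 to 14, Nr4a3 at 7 to 11, Nr4a2 and Rxrb at 5 to 7 and 5 to 6, Rxra at 16 to 18 and Rxrg at 32 to 34. Thra, the thyroid hormone receptor α gene, was first at 114 ± 13.8 RPKM. It was followed by the mineralocorticoid receptor gene Nr3c2 at 59.5 ± 6.09, the glucocorticoid receptor gene Nr3c1 at 23.9 ± 2.03 and the clock repressor Nr1d2 at 20.7 ± 1.93 RPKM. These values depend on the length used: per kilobase of the longest transcript, Nr4a1 was at 11.2, Rxra at 5.26 and Rxrb at 19 RPKM, and Nr4a1 then stood above Nr4a3 at 9.01.

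**Figure D1:**
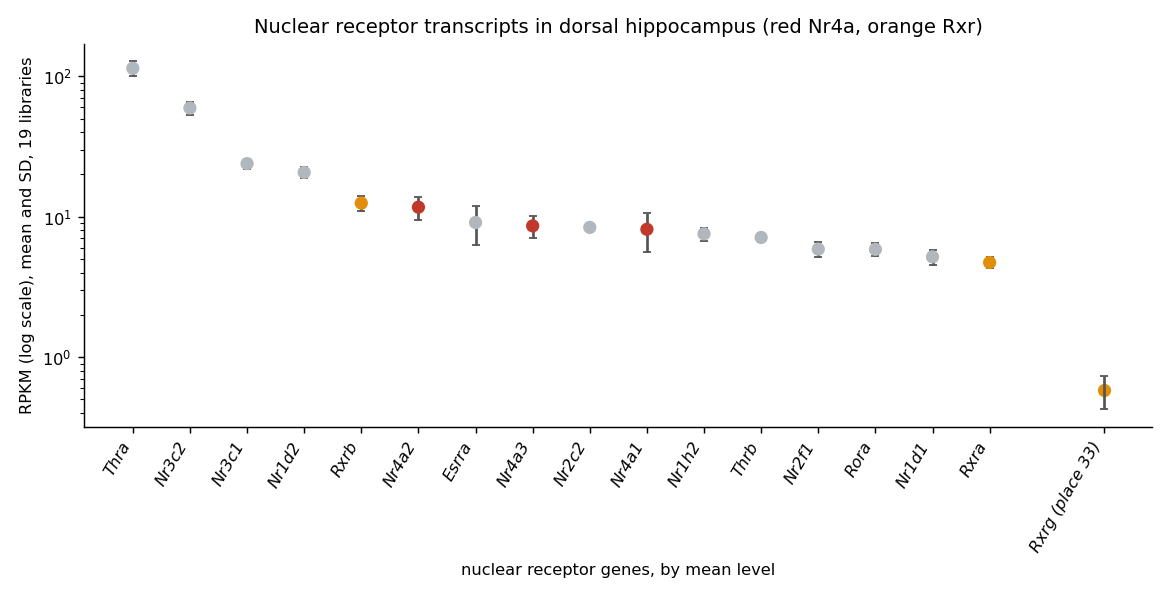
Mean RPKM (log scale, bars SD over 19 libraries) of the 16 highest of 49 nuclear receptor genes, with Rxrg added at place 33. Rxrb, Nr4a2, Nr4a3 and Nr4a1 lie between 8.14 and 12.5 RPKM, below the 4 leading receptor genes, and Rxrg is at 0.581 RPKM.

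The order of the 6 genes was not the same in each group, and neighbours in it often could not be separated. Per kilobase of exon, in the experiment 1 controls Nr4a2 led with 13.8 ± 2.3 RPKM (SD, n = 6), above Rxrb at 11.4 ± 0.37, with overlapping ranges. In the DN libraries Rxrb at 11.6 ± 0.526 and Nr4a2 at 11.5 ± 1.65 RPKM (n = 5) overlapped as well. In experiment 2 Rxrb stood above Nr4a2 in 4 of 4 libraries of each group without overlap, at 13.1 ± 0.676 against 9.69 ± 0.969 RPKM in the homecage and 14.8 ± 1.22 against 10.8 ± 0.964 after SOR. Nr4a1 and Nr4a3 overlapped in the 3 groups exposed to SOR, whereas in the homecage Nr4a3 at 8.01 ± 1.38 was above Nr4a1 at 5.39 ± 0.614 RPKM without overlap. Rxra lay below every Nr4a gene in each group's means, and in the homecage its range of 4.04 to 4.59 RPKM overlapped that of Nr4a1, 4.48 to 5.78. Rxrg was below Rxra in all 19 libraries. Part of this order turned with the length used. Per kilobase of the longest transcript Rxrb led in all 4 groups, with 17.3 against 15.7 RPKM for Nr4a2 in the experiment 1 controls (overlapping) and 17.5 against 13.1 in DN (no overlap). On that length Nr4a1 stood above Nr4a3 in DN without overlap, at 12.4 against 8.98 RPKM, and the homecage ranges of Nr4a3 and Nr4a1, with means of 8.38 and 7.41, overlapped. Libraries labelled tTA+/DN- and SOR occur in both experiments, 6 in the first and 3 in the second, and levels were not tested between the experiments.

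Shares within each family were taken of the summed RPKM. Nr4a2 made up 41.3% ± 3.01 of the summed Nr4a RPKM (SD, n = 19), Nr4a3 30.5% ± 3.37 and Nr4a1 28.2% ± 4.36. The share of Nr4a1 ran from 21.4% to 35.3%, from below that of Nr4a3 in experiment 1 control replicate 4 to above it in control replicate 2. Per kilobase of the longest transcript the mean shares were 40% for Nr4a2, 32.9% for Nr4a1 and 27.2% for Nr4a3, so the order of Nr4a1 and Nr4a3 turned with the length used. Rxrb made up 70.2% ± 2.6 of the Rxr sum, Rxra 26.6% ± 2.37 and Rxrg 3.26% ± 0.885. The ratio of the Nr4a sum to the Rxr sum was 1.04 to 2.47 over the 19 libraries, and per kilobase of the longest transcript 0.869 to 2.13, above 1 in 17 libraries and below it in 2. With exon length the ratio was 2.02 ± 0.364 in the experiment 1 controls (n = 6), 1.71 ± 0.185 in DN (n = 5), 1.24 ± 0.155 after SOR in experiment 2 (n = 4) and 1.29 ± 0.141 in the homecage (n = 4).

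**Figure D2:**
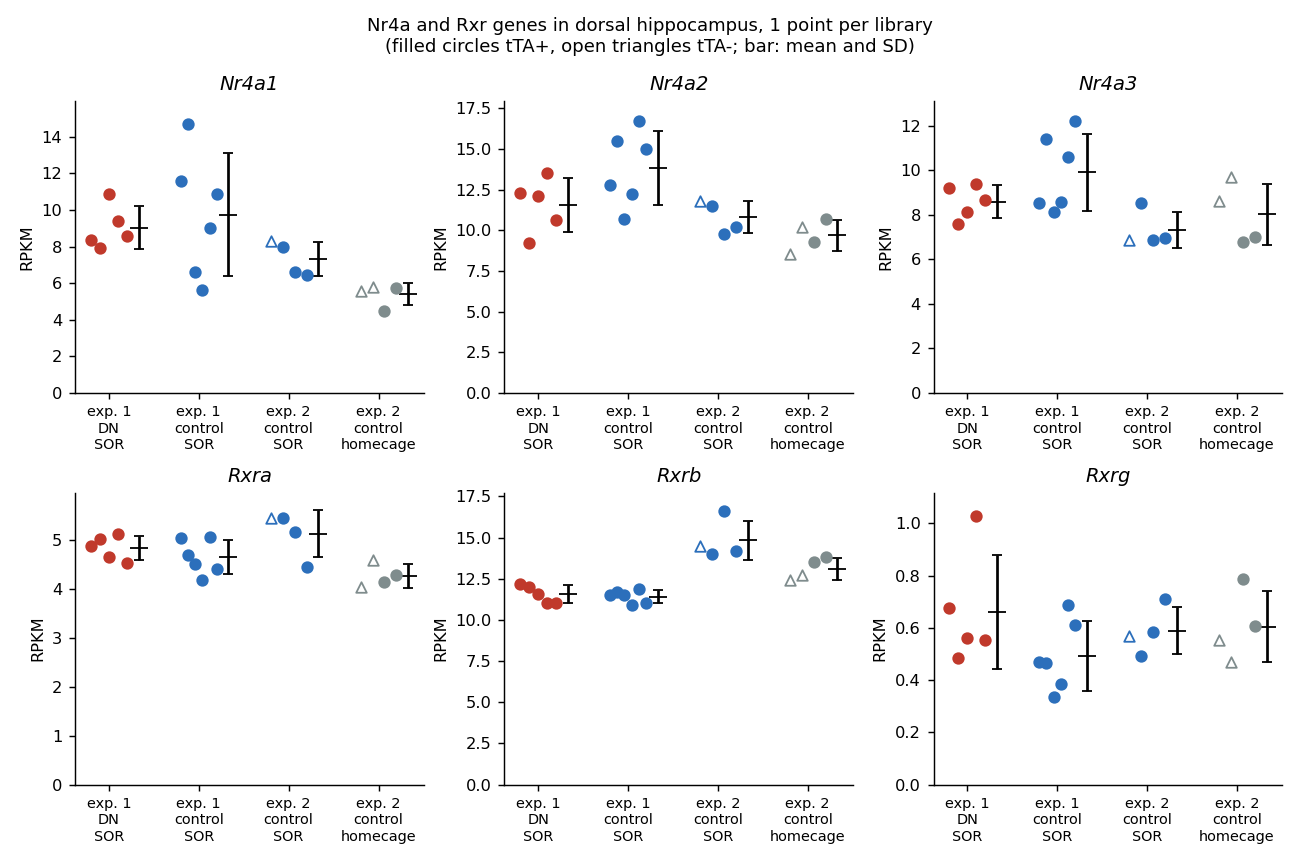
RPKM of the 6 genes, 1 point per library, by group (filled circles tTA+, open triangles tTA-, bars mean and SD). Nr4a1 in the experiment 1 controls spreads from 5.63 to 14.7 RPKM, and its SOR and homecage libraries of experiment 2 do not overlap.

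Libraries held 22258159 to 66991576 counts. Hippocampal neuron markers summed to 4050 to 5460 CPM over the 19 libraries, with 6 of 6 detected in every group. Choroid plexus markers (8 genes, 8 of 8 detected in every group) summed to 19.4 to 4020 CPM. Transthyretin (Ttr), the leading one, was at 3750 and 1230 CPM in experiment 1 control replicates 1 and 2, 1480 in DN replicate 2, and 939 and 2030 in experiment 2 SOR replicates 1 and 2, and at 140 CPM or less in the other 14 libraries. In bulk tissue, fewer cells of a type and less RNA per cell cannot be told apart.

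The comparison of DN with control mice after SOR asked whether the counts of the receptor genes differ in mice that carry DN. Whether the Nr4a counts of those mice include transgene reads is not known here. None of the 6 genes passed an adjusted p under 0.05, as 0.00893% of the 22391 genes tested did (2 genes, Ptprf and St3gal3). Nr4a1 CPM in the 5 DN libraries were 29.4, 27.8, 38.4, 33.1 and 30.1. In the 6 controls they had a lowest value of 19.8, a median of 35 and a highest of 51.6. The DN values all lay inside the range of the controls, whose spread was the widest of the 4 groups: the coefficient of variation was 34.5% in controls and 13.2% in DN. The log2 fold change of Nr4a1 was -0.11 (SE 0.242, 95% interval -0.65 to 0.44, adjusted p = 0.999). The 2 highest controls, replicates 1 and 2 at 40.7 and 51.6 CPM, were also the 2 controls rich in Ttr. In DN it went the other way: replicate 2, rich in Ttr at 1480 CPM, had the lowest Nr4a1 of the DN libraries, 27.8 CPM. Without the 3 choroid plexus-rich libraries of this experiment the log2 fold change of Nr4a1 was 0.22 (SE 0.226, adjusted p = 1), and with the choroid plexus score as a covariate it was -0.05.

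Nr4a2 in DN was at 49.8, 37.5, 49.1, 54.7 and 42.9 CPM, and in controls between 43.2 and 67.9 with a median of 56.5. Its log2 fold change was -0.26 (SE 0.136, interval -0.56 to 0.05, adjusted p = 0.999). Nr4a3 in DN was at 55.0, 45.3, 48.5, 56.2 and 51.9 CPM, and in controls between 48.5 and 73.1 with a median of 57.5. For both genes 3 controls lay above every DN library and the remaining 3 lay among them. The log2 fold change of Nr4a3 was -0.20 (SE 0.119, interval -0.47 to 0.06, adjusted p = 0.999). Values of all 3 Nr4a genes were thus below 0, as were those of 50% of all genes tested. Without the choroid plexus-rich libraries Nr4a1 was at 0.22, Nr4a2 at -0.17 and Nr4a3 at -0.16. With the replicate number as a block they were at 0.001, -0.23 and -0.13.

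Of the RXR genes, Rxra was at 24.8 to 28.0 CPM in DN and 22.9 to 27.7 in controls, and Rxrb at 43.8 to 48.3 and 43.4 to 47.1. Their log2 fold changes, 0.06 (SE 0.0554, interval -0.06 to 0.17) for Rxra and 0.02 (SE 0.0403, interval -0.07 to 0.10) for Rxrb, are the ones with the narrowest intervals. Rxrg CPM in DN were 1.55, 1.11, 1.29, 2.36 and 1.27, and in controls between 0.774 and 1.58 with a median of 1.07. DN replicate 4 stood highest, and the other 4 DN libraries lay within the range of the controls. The log2 fold change of Rxrg was 0.45 (SE 0.211, interval 0.01 to 0.89), with an unadjusted p of 0.0463 in edgeR, a level that 3.83% of all genes reached, and an adjusted p of 0.999. Leaving out that library brought it to 0.22.

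**Figure D3:**
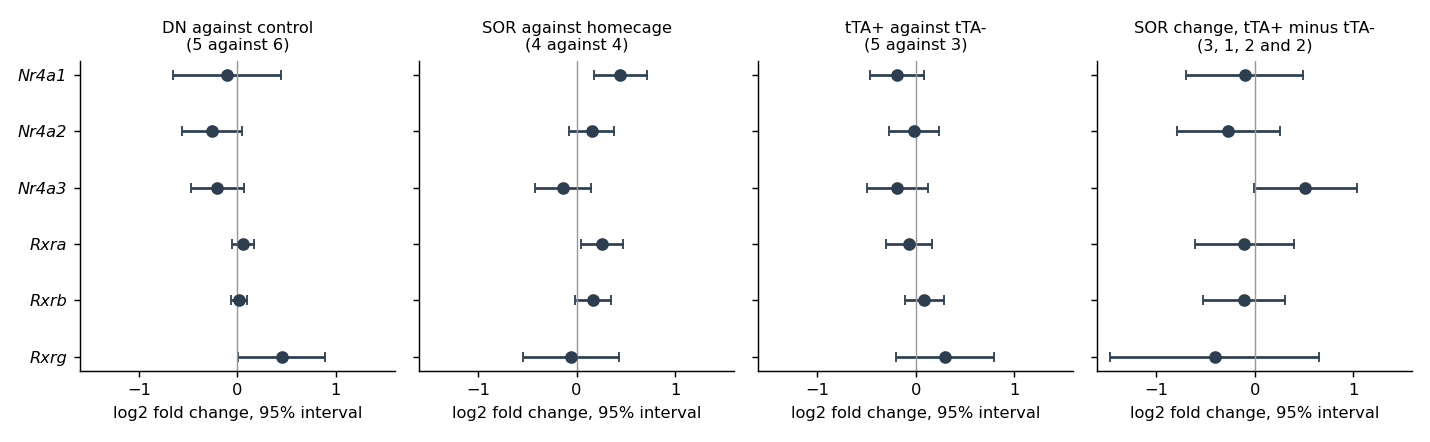
Log2 fold change (points) and 95% interval (bars) of the 6 genes in the 4 comparisons. No gene passed an adjusted p under 0.05 in any of them, and the intervals are narrowest for Rxra and Rxrb in experiment 1.

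The comparison of SOR with homecage controls asked which receptor transcripts respond to the exposure. In experiment 2 the SOR libraries held Nr4a1 at 29.1, 28.0, 23.2 and 22.6 CPM, against 19.5, 20.3, 15.7 and 20.1 CPM for homecage libraries. Every SOR library was above every homecage library. The log2 fold change was 0.44 (SE 0.123, interval 0.17 to 0.71), 1.36 times the homecage level. Its unadjusted p in edgeR was 0.00391, and its adjusted p of 0.49 did not pass. Of 22305 genes, 0.0897% passed the adjusted threshold, 7.6% had an unadjusted p under 0.05, and 5.67% had groups that did not overlap, 2.99% with SOR above. None of the 6 receptor genes passed, and for 2 of them, Nr4a1 and Rxrb, the groups did not overlap, both with SOR above.

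Nr4a1 took a larger share of the Nr4a sum after SOR, 27.3% to 30.8%, than in the homecage, 21.8% to 24.5%. For Nr4a2 the SOR libraries read 47.7, 46.7, 39.7 and 41.5 CPM and the homecage libraries 34.7, 41.4, 37.6 and 43.5 CPM, and the groups overlapped. Its log2 fold change was 0.15 (SE 0.103, interval -0.07 to 0.38, adjusted p = 0.687). For Nr4a3 the SOR libraries read 41.0, 50.9, 41.2 and 41.7 CPM and the homecage libraries 51.4, 58.0, 40.6 and 41.8 CPM. Its 2 highest libraries were thus the tTA- homecage libraries, and the groups overlapped. The log2 fold change of Nr4a3 was -0.14 (SE 0.13, interval -0.42 to 0.15, adjusted p = 0.743), and among tTA+ mice alone it was 0.11. With 1 library left out it ran from -0.23 (SOR replicate 2) to -0.03 (homecage replicate 2), and that of Nr4a2 from 0.09 (homecage replicate 1) to 0.21 (SOR replicate 3). Whether the responses of Nr4a1 and Nr4a3 differ from each other was not tested.

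Rxra stood at 29.8, 29.8, 28.2 and 24.3 CPM with SOR and 22.1, 25.0, 22.7 and 23.4 CPM without. SOR replicate 4 lay among the homecage values and the other 3 stood above them. The log2 fold change was 0.26 (SE 0.096, interval 0.05 to 0.47, unadjusted p = 0.0198 and adjusted p = 0.621 in edgeR). Rxrb stood at 57.8, 55.5, 66.0 and 56.2 CPM with SOR and 49.3, 50.5, 53.7 and 55.0 CPM without, so its groups did not overlap either. Its log2 fold change was 0.17 (SE 0.082, interval -0.01 to 0.34, adjusted p = 0.662). The highest Rxrb value came from SOR replicate 3, the library with the fewest counts. Rxrg, at 1.13 to 1.63 CPM after SOR and 1.07 to 1.81 in the homecage, had a log2 fold change of -0.06 (SE 0.222, adjusted p = 0.95).

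Choroid plexus markers spread widely within the SOR group: their sum was 24.5 to 2210 CPM after SOR and 45.5 to 176 in the homecage. The groups overlapped, with 0 of 8 called. The 2 SOR libraries richest in them, replicates 1 and 2, had the highest values of Nr4a1, Nr4a2 and Rxra. With the choroid plexus score as a covariate the log2 fold changes were 0.34 for Nr4a1 (adjusted p = 0.132), 0.07 for Nr4a2, -0.22 for Nr4a3, 0.20 for Rxra (adjusted p = 0.248) and 0.20 for Rxrb (adjusted p = 0.205). Without those 2 libraries, which leaves 2 against 4, they were 0.25 (SE 0.135) for Nr4a1, 0.02 (SE 0.123) for Nr4a2, -0.24 (SE 0.156) for Nr4a3, 0.14 (SE 0.119) for Rxra and 0.20 (SE 0.11) for Rxrb.

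The experiment 2 controls were also compared by tTA genotype, with exposure in the model, on the same 8 libraries as the SOR comparison. None of the 6 genes passed an adjusted p under 0.05, against 0.358% of 22904 genes, and for none did the groups fail to overlap, against 5.81%. Nr4a1 was at 28.0, 23.2, 22.6, 15.7 and 20.1 CPM in tTA+ and 29.1, 19.5 and 20.3 in tTA-, a log2 fold change of -0.19 (SE 0.122, interval -0.46 to 0.08). That value ran from -0.285 to -0.121 with 1 library left out. Nr4a2 was at 37.6 to 46.7 CPM in tTA+ and 34.7 to 47.7 in tTA-, a log2 fold change of -0.02 (SE 0.114, interval -0.27 to 0.24). Nr4a3 was at 40.6 to 50.9 CPM in tTA+ and 41.0 to 58.0 in tTA-, a log2 fold change of -0.19 (SE 0.138, interval -0.49 to 0.12). It was -0.41 without SOR replicate 1 (adjusted p = 0.818 in edgeR) and -0.09 without homecage replicate 2. Rxra gave -0.07 (SE 0.105), Rxrb 0.09 (SE 0.0884) and Rxrg 0.30 (SE 0.225), each with an adjusted p of 1. With 1 library left out Rxrg ran from 0.16 (homecage replicate 3) to 0.47 (SOR replicate 1) and Rxra from -0.12 (homecage replicate 1) to -0.03 (SOR replicate 1 or homecage replicate 2). Dentate granule cell markers differed with genotype: 3 of 6 (C1ql2, Dsp and Pla2g2f) were lower in tTA+ at an adjusted p under 0.05. Their summed level was 331 to 406 CPM in tTA+ and 533 to 579 in tTA-. Summed striatal markers were at 57.8 to 71.4 CPM in tTA+ and 41.2 to 49.8 in tTA-, with 0 of 6 called. Neocortex and subiculum markers summed to 142 to 164 CPM in tTA+ and 128 to 141 in tTA-, with 1 of 8 (Tbr1) called higher. The sums of thalamus and habenula markers overlapped, with 1 of 5 tested (Tac2) called higher. With the replicate number as a block 0 genes of the whole table were called by tTA in edgeR. Only replicate 2 has both genotypes, tTA- in the homecage and tTA+ after SOR, so genotype and exposure differ together there. The tTA term of that fit sets the difference between SOR and homecage in replicate 2 against that in the other replicates. The part of these cell types in the receptor values was not tested.

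The interaction asked whether the change with SOR differed between tTA+ and tTA- mice, on 3 and 2 tTA+ libraries and on 1 and 2 tTA- libraries. No member passed, against 0% of 25045 genes in edgeR, DESeq2 and limma-voom called no gene either, and in edgeR 2.24% of all genes had an unadjusted p under 0.05. Nr4a3 had the interval that came nearest to leaving 0. In the homecage it was at 51.4 and 58.0 CPM in tTA- and 40.6 and 41.8 in tTA+, whereas after SOR it was at 41.0 in tTA- and 50.9, 41.2 and 41.7 in tTA+. The log2 change with SOR in tTA+ minus that in tTA- was 0.51 (SE 0.231, interval -0.01 to 1.03, unadjusted p = 0.0533 in edgeR and adjusted p = 1). The tTA- change rests on a single SOR library. The other 5 members gave interaction values from -0.41 (Rxrg) to -0.10 (Nr4a1), each with an unadjusted p of 0.277 or more in edgeR.

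The 6 genes were next compared with each other across libraries, in each experiment alone, as 30 relations of log2 CPM. In experiment 1 Nr4a2 and Nr4a3 varied together over 11 libraries, with Pearson r = 0.864 (permutation p = 0.00061, adjusted p = 0.0183) and Spearman rho = 0.836 (permutation p = 0.00241, adjusted p = 0.0361). Without the 2 libraries farthest from the median of Nr4a2 r was 0.851, and in the 6 controls it was 0.862. In experiment 2 the same pair gave r = -0.113 over 8 libraries (permutation p = 0.777) and 0.446 without 2 libraries, so its sign there rests on those 2. There Nr4a1 and Rxra gave r = 0.886 (exact permutation p = 0.00184, adjusted p = 0.0275) and rho = 0.952 (exact permutation p = 0.00114, adjusted p = 0.0342), and 0.888 without 2 libraries. With each value taken relative to its group mean, r between Nr4a1 and Rxra was 0.667, against 0.391 in experiment 1. Not centred, r in experiment 1 was 0.35 (permutation p = 0.291). Each of the 2 pairs passed the adjusted threshold in 1 experiment, and the difference in r between experiments was not tested. The permutations moved values across groups, so their p-values include differences between groups and in tissue makeup. No p was taken for values relative to the group mean.

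**Figure D4:**
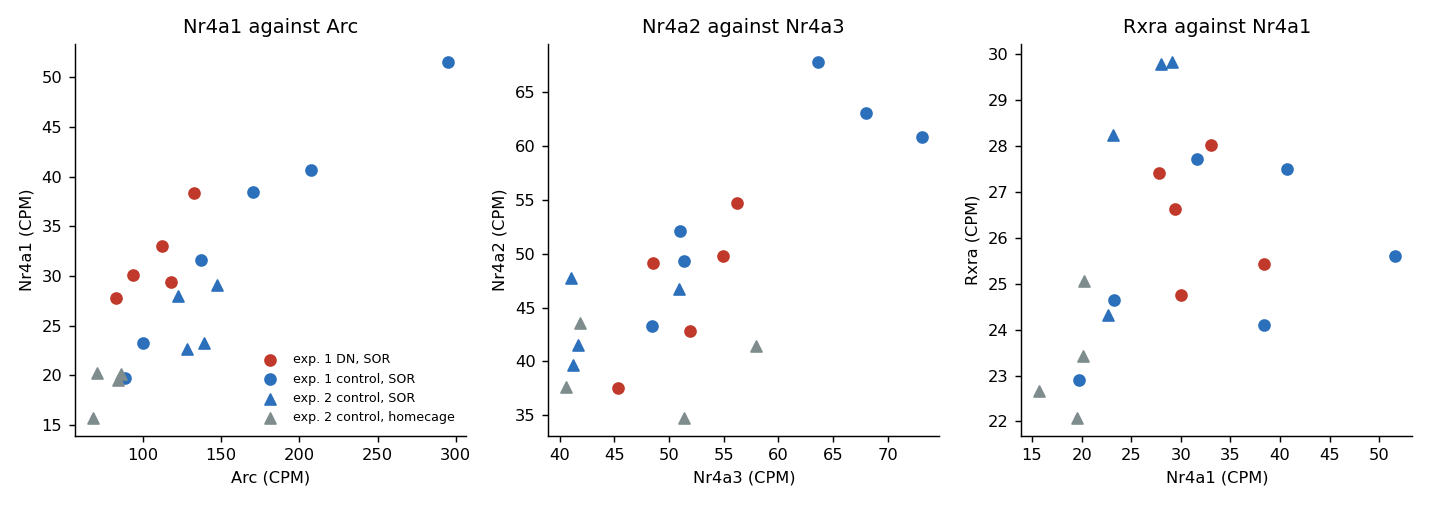
CPM of Nr4a1 against Arc, Nr4a2 against Nr4a3 and Rxra against Nr4a1, 1 point per library, coloured by group (circles experiment 1, triangles experiment 2). Nr4a1 is highest, at 51.6 CPM, in the control library where Arc is highest, at 295 CPM, and the 3 highest Nr4a2 values sit at the 3 highest Nr4a3 values.

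Among 16375 genes with a mean of at least 1 CPM, the 3 most like each member were taken by the lower of the 2 Pearson r, over 11 and 8 libraries. They are given without a p, since libraries share groups and tissue makeup. Nr4a1 was most like Arc, whose RNA travels to dendrites (r = 0.873 and 0.853), Egr2 (0.918 and 0.798) and Dok3 (0.782 and 0.783). Nr4a2 was most like Osbpl6 (0.845 and 0.825), Luzp1 (0.81 and 0.838) and Crkl (0.806 and 0.801). Nr4a3 was most like Klhl29 (0.853 and 0.939), Trim9 (0.826 and 0.895) and Eif4ebp2 (0.822 and 0.794). For the RXR genes the nearest were Pigs, Hist2h2be and Scly (Rxra), Tmem59l, Sdf4 and Hagh (Rxrb), and Glrx, Gm14978 and Resp18 (Rxrg). Of these, Tmem59l had r = 0.894 and 0.896 with Rxrb.

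The 6 genes were also set beside 15 other immediate-early genes, in each experiment alone. In experiment 1 the median r with that list was 0.73 for Nr4a1, 0.684 for Nr4a2 and 0.647 for Nr4a3. In experiment 2 it was 0.61 for Nr4a1, 0.296 for Nr4a2 and -0.08 for Nr4a3. Rxra went from 0.124 to 0.616, Rxrb from 0.182 to 0.482 and Rxrg from 0.034 to -0.33. These medians are descriptions over libraries that share groups, and no difference in r between the experiments was tested.

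The genes around the 6 receptors were described from lists chosen for their role. After SOR, 2 of the 15 immediate-early genes were called in edgeR, both higher, and the median log2 fold change of the list was 0.26 against 0.01 over all genes. Arc rose by a log2 value of 0.79 (SE 0.0991, adjusted p = 0.0131), from 77.3 ± 9.23 to 134 ± 10.9 CPM (SD, n = 4 each). Fos, a subunit of the AP-1 factor, rose by 1.17 (SE 0.182, adjusted p = 0.0432), from 4.26 ± 1.09 to 9.69 ± 0.918 CPM. The values of both kept their direction with each library left out in turn, from 0.73 to 0.85 for Arc and from 1.03 to 1.32 for Fos, but the calls did not all hold. In edgeR Arc did not pass without homecage replicate 1, 2 or 3 or SOR replicate 1 (adjusted p = 0.0817, 0.0826, 0.0863 and 0.0837). Fos passed in edgeR without SOR replicate 3 (adjusted p = 0.0283) and did not pass with any 1 of the other 7 libraries left out (adjusted p = 0.0604 to 0.265). Without the 2 choroid plexus-rich libraries neither passed (0.77, adjusted p = 0.288 for Arc and 1.25, adjusted p = 0.333 for Fos in edgeR), and the median of the list was 0.45. The value of Nr4a1, 0.44, lay below those of 7 of the 15 (Fos, Egr2, Fosb, Arc, Egr1, Egr4 and Junb, from 1.17 to 0.51) and above those of the other 8 (0.26 to -0.18), Bdnf among them at 0.08. In DN against control none of the 15 was called, all 15 were below 0, and the median was -0.28 against 0 over all genes, with -0.62 for Arc and -0.53 for Fos. The controls of Arc spread widely: it was at 166 ± 77 CPM in the 6 controls and 108 ± 19.8 in the 5 DN libraries. Without the 3 choroid plexus-rich libraries of that experiment 11 of the 15 were below 0 and the median was -0.06, and without control replicate 2 alone it was -0.15.

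Of 14 receptors that pair with RXR, 10 were tested in the DN comparison, 11 in the SOR and tTA comparisons and 12 in the interaction, and none was called. In the SOR comparison their median log2 fold change was 0.08, and 2 had an unadjusted p under 0.05 in edgeR: the retinoic acid receptor Rara (0.44, SE 0.147, adjusted p = 0.608) and the liver X receptor Nr1h3 (0.53, SE 0.196, adjusted p = 0.621). The most abundant partners, Thra, Nr1h2 and Thrb, gave 0.07, 0.17 and 0.02. None of the 14 coactivators and corepressors was called, and their values lay between -0.07 and 0.04 in DN and between -0.26 and 0.15 after SOR. The 4 most abundant were the corepressor Ncor1 at 33 ± 2.84 RPKM, Trim28 at 30.8 ± 6.8, the coactivator Ncoa1 at 26.5 ± 1.94 and Tbl1xr1 at 21.2 ± 1.64.

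None of the 12 upstream regulators (CREB, its CRTC coactivators, SRF and MEF2 factors among them) was called in any comparison. Their median was -0.06 in DN and -0.01 after SOR, where the value of Srf was 0.28 (SE 0.115, adjusted p = 0.629). Srf was also the most abundant at 19 ± 3.71 RPKM, followed by the activity-regulated factors Mef2c, Mef2a and Mef2d, whose values after SOR were -0.07, -0.26 and -0.10. Retinoid genes, which make, bind or break down the ligands of RAR and RXR, were not called either, 0 of 14 in DN, 0 of 15 in the SOR and tTA comparisons and 0 of 16 in the interaction. Ttr, which carries thyroid hormone and the retinol-binding protein and is made in the choroid plexus, led them at 441 ± 834 RPKM, and Aldh1a1, a retinaldehyde dehydrogenase, followed at 18.5 ± 1.84. Next came Rdh11 at 9.44 ± 1.18 RPKM and Dhrs3, a retinaldehyde reductase, at 4.66 ± 0.465, with log2 fold changes after SOR of 0.08 and 0.09. Of 16 genes known as Nr4a targets in other tissues, 11 were tested in DN and none was called, with values from -0.15 to 0.22 and a median of 0.02. After SOR 12 were tested and none was called, with Pdk4, a brake on pyruvate use, at 0.39 (SE 0.124, adjusted p = 0.604) and the neuropeptide gene Vip at 0.45 (SE 0.168, adjusted p = 0.621). Star, which moves cholesterol into mitochondria, gave 0.01 and the vesicular monoamine transporter gene Slc18a2 -0.17.

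**Figure D5:**
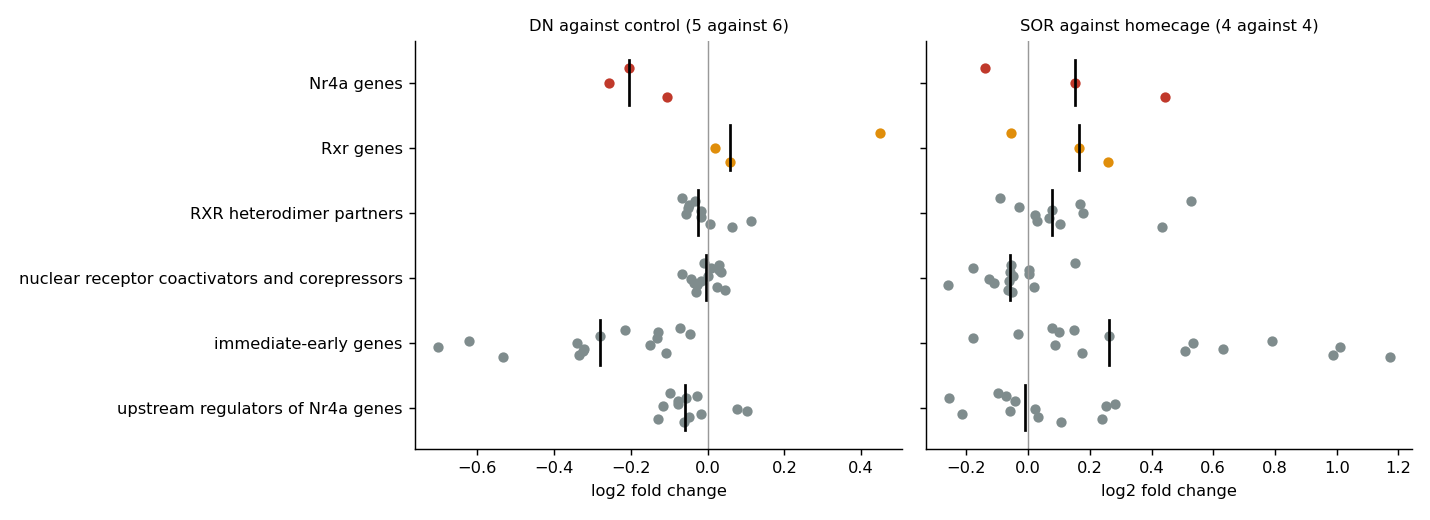
Log2 fold change of each gene tested in the Nr4a and Rxr families and in 4 lists, for DN against control and SOR against homecage (1 point per gene, black line the list's median). All 15 immediate-early genes lie below 0 in DN, with a median of -0.28 (-0.06 without the choroid plexus-rich libraries), and after SOR their median is 0.26.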

How the data were processed

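Gene counts came from ribosomal-RNA-depleted total RNA of dorsal hippocampus in 19 libraries. The deposited table holds whole-number counts per gene that the authors made. STAR, SAMtools 1.6, featureCounts 1.4.4 and mm10 are named in the submitters' processing notes without role or order, and the annotation and use of strand are not given in the sources used here. No annotated gene overlaps a member. Symbols, positions and exon lengths came from GENCODE M21 (GRCm38), which held 51596 of 51789 identifiers. The members span chr15:101254269-101274795 (Nr4a1), chr2:57106830-57124003 (Nr4a2), chr4:48045153-48086447 (Nr4a3), chr2:27676440-27762957 (Rxra), chr17:34031812-34038399 (Rxrb) and chr1:167598384-167639623 (Rxrg), and 4 of 6 had the same identifier version.

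Each experiment was fitted alone with edgeR 4.0.16 in R 4.3.3 (TMM scaling, filterByExpr, robust quasi-likelihood F tests, two-sided), with Benjamini-Hochberg adjustment over all genes tested, and calls were made at adjusted p under 0.05. The SE of a log2 fold change was taken from the size of the change and its F statistic. CPM and RPKM were computed from the counts with TMM factors over 19 libraries, and log2 CPM with a prior count of 2. Replicates differed by more than counting noise (chi-square per degree of freedom 4.63 to 73.4 over genes with at least 20 counts), so none was counted as a repeat. Relations used 100000 permutations at 11 libraries and all 40320 arrangements at 8, made without regard to group.

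On simulated counts with 100 genes changed by a log2 value of 1, the DN fit recovered 100 of 100 among 22391 genes, the SOR fit 87 among 22305, the tTA fit 91 among 22904 and the interaction fit 9 among 25045. Of 100 changed by 1.5 they recovered 100, 100, 99 and 58, with 16, 14, 11 and 6 false calls. The changed genes were drawn from those with an expected count above 100 at the mean library size. Both sizes are larger than any value of the 6 receptor genes in these fits. Recovery of changes as small as theirs was not tested.

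The members and lists were chosen with earlier results of these data known. Named were the 6 members, called list genes, the 4 most abundant genes of each list and the 3 genes most like each member. Other genes given by value were chosen after their values were seen. Alternatives were other scalings and filters, DESeq2 1.42.0, limma-voom (limma 3.58.1), an adjusted p under 0.1, 1 fit of all libraries, a replicate block, tTA and choroid plexus covariates, tTA+ mice alone, libraries left out, and transcript length. Added after the data were seen were leaving out libraries for the interaction, leaving out the libraries with Ttr at 500 CPM or more, all alternatives for Arc, Fos and the immediate-early gene median, and transcript length for levels by group and the ratio of the families.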

Additional observations from a re-analysis of the deposited data

Results flagged for a closer look

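In 24 checks of a gene in a group of 4 to 6 libraries, 2 had a single library far from the others, and chance gives about 1 in 20. Nr4a1 in homecage replicate 3, a tTA+ library, was the lowest of its group at 15.7 CPM, with a gap to the next library of 0.853 of the group's range on the log2 scale (critical value 0.829). Leaving libraries out in turn kept the SOR value of Nr4a1 between 0.36 and 0.50. Nr4a3 in experiment 2 SOR replicate 2, also tTA+ and rich in choroid plexus markers, was the highest of its group at 50.9 CPM, with a gap of 0.93 of the range. The other 3 libraries of that group lay between 41.0 and 41.7 CPM.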

How the results depend on the processing

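No member was called under any alternative, and 412 of 432 member values kept their direction and 20 did not. Nr4a1 in DN was 0.001 with the replicate block, 0.215 without choroid plexus-rich libraries and -0.224 to 0.05 with 1 library left out. After SOR, Rxrg was 0.034 with the choroid plexus covariate, 0.078 without those libraries and -0.166 to 0.112 with 1 library left out, and Nr4a3 in tTA+ mice alone was 0.106. By tTA, the replicate block gave 0.066 for Nr4a1, 0.051 for Nr4a2, 0.015 for Rxra and -0.017 for Rxrb. In that fit only replicate 2 has both genotypes, and they differ in exposure too, so the tTA term also draws on the other replicates. Nr4a2 by tTA was 0.043 with the choroid plexus covariate, 0.089 without the rich libraries and -0.098 to 0.093 with 1 library left out. The interaction ranged from -0.273 to 0.083 for Nr4a1 and -0.194 to 0.004 for Rxra, and could not be estimated without SOR replicate 1. Below 0 throughout were Nr4a2 (-0.395 to -0.145), Rxrb (-0.176 to -0.046) and Rxrg (-0.578 to -0.204).

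Genes called after SOR, 20, became 36 with no filter, 122 in DESeq2, 35 at an adjusted p under 0.1, 231 with all libraries in 1 fit, 9 with the replicate block, 11 with the tTA covariate, 0 in tTA+ mice alone, 1 without choroid plexus-rich libraries and 1 to 50 with 1 library left out. Those by tTA, 82, became 265, 253, 133 and 366 under the first 4 of these, 0 with the block, 15 without the rich libraries and 10 to 290 with 1 left out. The interaction gave 19 with no filter and 0 to 0 with 1 left out. The DN count stayed at 2. Deviations of same-numbered libraries from their group means had r of -0.05 to 0.193 in experiment 1 and 0.046 to 0.393 in experiment 2. Differently numbered libraries were not compared, so whether the numbers pair libraries was not tested. Rxrg is limited by its 27 to 121 counts. Per longest transcript Nr4a1 was at 11.2, Rxra at 5.26 and Rxrb at 19 RPKM. After SOR, Arc was called in 13 of 20 alternatives and Fos in 6 of 20, and over all 20 their values were 0.734 to 0.846 and 0.961 to 1.321. The cause of these shifts was not tested.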

Other observations

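Of the 43 nuclear receptor genes besides the 6 described, 30 were tested in DN and 31 after SOR, and none was called in edgeR. The glucocorticoid receptor gene Nr3c1 had a log2 fold change of -0.26 after SOR (SE 0.0845, interval -0.45 to -0.08, unadjusted p = 0.00948, adjusted p = 0.604 in edgeR). In DN the clock repressor gene Nr1d2 had -0.20 (SE 0.0618, adjusted p = 0.999 in edgeR) and the neural stem cell receptor gene Nr2e1 -0.21 (SE 0.0938, adjusted p = 0.999 in edgeR). These 3 were named after their values were seen, by an unadjusted p under 0.05.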
